A study of Mus musculus with 47 samples.

Results

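The phagocyte NADPH oxidase subunits described here are 5 genes, chosen by symbol: Cybb, Cyba, Ncf1, Ncf4 and Rac2. All 5 were found among the 51912 genes of the bone marrow-derived macrophage (BMDM) tables. All 5 were also listed in each of the 4 Raw264.7 tables, which hold between 12771 and 23772 genes. The oxidase passes electrons from NADPH across a membrane to oxygen and makes superoxide. Cybb encodes gp91phox, the catalytic core, and Cyba encodes p22phox, its membrane partner, and the pair stabilise each other. On activation Ncf1 (p47phox, the organizer), Ncf4 (p40phox) and the GTPase Rac2 join this core from the cytosol, and macrophages and neutrophils use the complex against engulfed microbes.

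The study asked how the chromatin reader ZMYND8 shapes inflammatory gene expression in mouse macrophages, and 12 of its 47 samples are RNA-seq libraries. 6 libraries are BMDMs, each made from 3 mixed biological replicates, and 6 are Raw264.7, a mouse macrophage-like cell line. With 1 library per group no difference has a replicate check, and the 95% limits below are exact Clopper-Pearson limits that cover counting error only. The other 35 samples were not used here.

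BMDMs came from bone marrow of C57BL/6 mice cultured with M-CSF. WT cells were from littermates with floxed Zmynd8 and no Cre, and cKO cells from mice that also carried Lyz2-Cre, which acts in cells of the myeloid lineage. M0 cells were untreated, M1 cells received 100 ng/ml LPS for 6 h and M2 cells received 20 ng/ml IL-4 for 6 h. The Raw264.7 lines were edited by CRISPR: Zmynd8 KO cells alone, with WT Zmynd8 or with the mutant D/E-A, and p65 KO cells alone, with WT p65 or with the mutant K122R. The p65 libraries are labelled LPS, and the labels of the Zmynd8 lines give no treatment, although the study describes LPS for the lines with WT Zmynd8 and D/E-A. The column taken as WT p65 does not name p65 KO, so it may hold unmodified cells. The labels give C57BL/6 and bone marrow for all libraries, the cell line included.

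Total estimated counts per BMDM library were 26209356 in WT M0, 22597425 in cKO M0, 24902795 in WT M1, 23430578 in cKO M1, 28386646 in WT M2 and 26128567 in cKO M2. Zmynd8, the targeted gene, had 2284 counts in WT M0 and 1842 in cKO M0, 1967 in WT M1 and 2033 in cKO M1, and 3636 in WT M2 and 3944 in cKO M2. Counts scaled to the library total are given as CPM, and with 1 added (CPM + 1) the difference of cKO against WT was -0.10 in M0, 0.13 in M1 and 0.24 in M2 on the log2 scale. The gene total was thus not called lower in any of the 3 libraries labelled cKO. Removal of the floxed exons can leave counts over the rest of the gene, so this total does not check the deletion, and the libraries are named as labelled throughout.

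Macrophage identity was plain in the BMDM libraries: 8 of 8 macrophage markers had over 10 CPM in each. Their sum was 18277 CPM in WT M0, 14668 in cKO M0, 13282 in WT M1, 9586 in cKO M1, 18578 in WT M2 and 14812 in cKO M2, with Lyz2 the most abundant of the 8 in every library. Lyz2, which hosts the Cre in the cKO mice, had 287004 counts in WT M0 and 162753 in cKO M0. Xist, made from the inactive X of female cells and named here after its values were seen, had between 6133 counts (WT M1) and 31447 (WT M2), while the study describes its control littermates as matched for sex.

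Per transcript length, Cyba was the most abundant of the 5 subunits in all 6 BMDM libraries. Its level on the authors' TPM scale, which corrects for transcript length and depth, was 1514 in WT M0, 1725 in cKO M0, 1511 in WT M1, 1365 in cKO M1, 1441 in WT M2 and 1428 in cKO M2. The highest Cyba level was thus only 1.26 times the lowest, and cKO M0 was the high library.

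Cybb, the catalytic core, varied most. It was at 219 TPM in WT M0, 103 in cKO M0, 454 in WT M1, 659 in cKO M1, 334 in WT M2 and 420.1 in cKO M2. Both M1 libraries were high, both M2 libraries were in between and cKO M0 was the low library, 6.43-fold under cKO M1. The TPM ratio of Cyba to Cybb therefore ran from 16.8 in cKO M0 and 6.91 in WT M0 to 3.33 in WT M1 and 2.07 in cKO M1, with 4.32 in WT M2 and 3.40 in cKO M2.

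Ncf1, the organizer that brings the cytosolic subunits to the membrane, was at 164 TPM in WT M0, 136 in cKO M0, 184 in WT M1, 218 in cKO M1, 309 in WT M2 and 384 in cKO M2. Ncf4, which binds a phosphoinositide of phagosome membranes, was at 157 TPM in WT M0, 145 in cKO M0, 236 in WT M1, 218 in cKO M1, 380 in WT M2 and 356 in cKO M2. For both genes the M2 pair was the highest and the M0 pair the lowest, and the TPM ratio of Ncf1 to Ncf4 stayed between 0.779 (WT M1) and 1.08 (cKO M2).

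Rac2, the GTPase that switches the assembled complex on, followed another order. Its level was 146 TPM in WT M0, 160 in cKO M0, 359 in WT M1, 356 in cKO M1, 116 in WT M2 and 139.8 in cKO M2. Both M1 libraries were high and the other 4 lay close together. Rac1, a widely expressed relative that can serve the same complex (named after its values were seen), was at 285 TPM in WT M0 and 232 in WT M1, so the TPM ratio of Rac2 to Rac1 went from 0.512 in WT M0 to 1.55 in WT M1 and was 0.317 in WT M2. Rac1 and Rac2 are similar in sequence, and how the authors' counting splits reads between them was not tested.

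Levels on TPM and on CPM did not always move together. Rac2 had 1.54 CPM per TPM in WT M0 and 1.62 in WT M1 but 2.02 in WT M2 and 2.06 in cKO M2, so in WT Rac2 was lower in M2 than in M0 on TPM and not on CPM, where WT M0 had 224 and WT M2 had 233. In cKO M0 all 5 subunits had more CPM per TPM than in WT M0, for example 0.407 against 0.339 for Cyba.

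**Figure D1:**
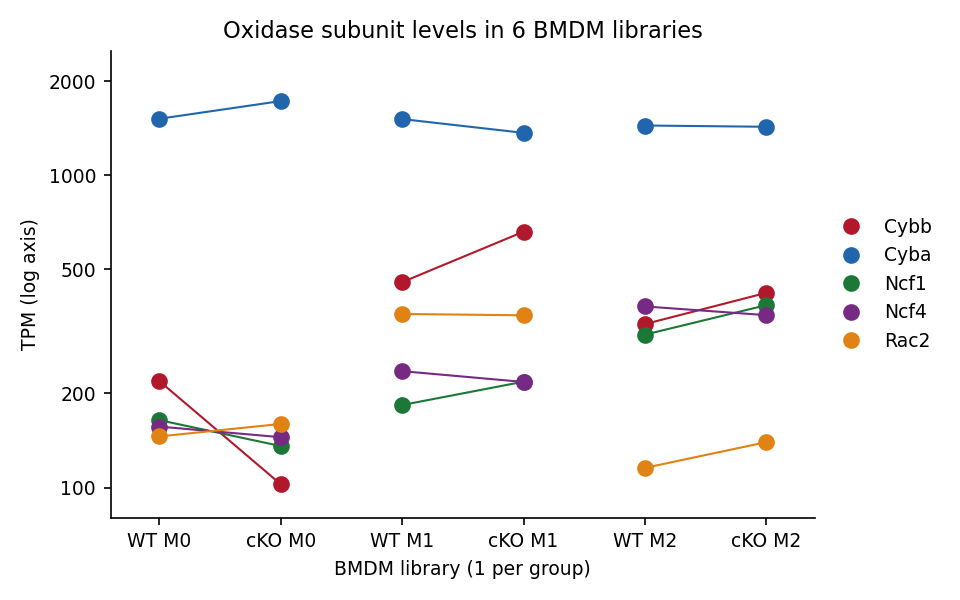
TPM of the 5 subunits on a log axis in the 6 BMDM libraries, 1 point per library, with a line joining WT and cKO of each treatment. Cyba stays between 1365 and 1725 TPM, while Cybb runs from 103 in cKO M0 to 659 in cKO M1.

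The genes are spread over the genome. On mm10 the tables place Cybb at chrX:9435252-9487766, Cyba at chr8:122424771-122432940 and Ncf1 at chr5:134220053-134229625, all on the minus strand. Ncf4 at chr15:78244164-78262582 on the plus strand and Rac2 at chr15:78559169-78572783 on the minus strand share a chromosome, 296586 bases apart. In RefSeq's annotation of the same build, the predicted genes Gm33784 and LOC115490142 overlap Cybb and Ncf1, and whether the counting used strand was not given in the sources used here, so reads in those overlaps cannot be told apart.

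Promoter windows of 300 bases that end 50 bases after the start site in RefSeq GRCm38.p6 were matched for 3 of 5 members, Cybb, Cyba and Ncf1. Ncf4 and Rac2 had no entry. The windows were searched on both strands for GAGGAA, a core of PU.1 sites, and for GGAANNGAA, the joint site of ETS and IRF factors. GAGGAA occurs in 28.3% and GGAANNGAA in 8.24% of all 32851 promoter windows of that length. The Cybb window holds 1 match of each, both on the strand opposite to the gene and overlapping by 4 bases. The Cyba and Ncf1 windows hold neither string. The Cybb and Cyba windows are printed below as those of the most and the least variable subunit. Both run 5′ to 3′ on the minus strand, from chrX:9469275-9469574 for Cybb, which lies within the listed span of the gene, and from chr8:122432891-122433190 for Cyba. The capitals mark the overlapping matches, and GC content is 35.3% for Cybb and 60.7% for Cyba.
Cybb promoter: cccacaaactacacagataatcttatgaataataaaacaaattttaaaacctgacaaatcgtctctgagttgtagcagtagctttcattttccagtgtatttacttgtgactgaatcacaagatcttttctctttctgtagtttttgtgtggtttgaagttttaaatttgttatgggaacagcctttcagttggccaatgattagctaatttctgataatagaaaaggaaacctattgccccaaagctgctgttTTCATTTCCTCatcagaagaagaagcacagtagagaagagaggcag
Cyba promoter: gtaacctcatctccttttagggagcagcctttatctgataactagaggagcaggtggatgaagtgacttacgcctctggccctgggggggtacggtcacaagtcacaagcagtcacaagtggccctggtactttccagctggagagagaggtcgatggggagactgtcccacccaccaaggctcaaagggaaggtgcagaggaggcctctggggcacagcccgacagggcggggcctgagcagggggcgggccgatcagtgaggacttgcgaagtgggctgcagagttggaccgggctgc

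LPS was compared with no treatment to see which subunits respond to a bacterial signal. Rac2 and Cybb were the subunits that differed most in WT cells. Rac2 had 5870 counts in WT M0 and 14498 in WT M1, a difference of 1.37 log2 units of CPM + 1 (95% limits 1.33 to 1.42). Cybb had 18539 counts in WT M0 and 38291 in WT M1, a difference of 1.12 (limits 1.09 to 1.15). Ncf4 went from 2866 to 4142 counts (0.60). A gene was called when CPM + 1 differed by at least 1.2-fold and an exact binomial test between the libraries passed an adjusted threshold of 0.05; that test compares libraries, not conditions. Under this rule 3 of 5 members were called, all higher, against 82.0% of 12813 tested genes in either direction, 20.7% higher and 61.3% lower. Ncf1, with 7565 and 8491 counts (0.24), and Cyba, with 13447 and 13431 (0.07, but -0.00 on TPM + 1), were not called.

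The split of that background between higher and lower depends on the scaling. The median of all tested genes was -0.58 in WT and -0.55 in the libraries labelled cKO. Relative to that median the WT differences were 1.96 for Rac2, 1.70 for Cybb, 1.18 for Ncf4, 0.82 for Ncf1 and 0.65 for Cyba. With median-ratio scaling 4864 genes were called higher and 4714 lower in WT, so calls among all genes went from 25.2% to 50.8% higher while most genes were still called. All 5 members were called higher, and Cyba was at 0.78 and Ncf1 at 0.94.

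In the libraries labelled cKO the LPS difference of Cybb was larger, from 8939 counts in cKO M0 to 49065 in cKO M1 (2.40, limits 2.37 to 2.44). Rac2 went from 6514 to 12901 counts (0.93), Ncf1 from 6387 to 8809 (0.41) and Ncf4 from 2812 to 3549 (0.28). Cyba went the other way on library totals, from 15882 to 10747 counts (-0.61), and on TPM + 1 (-0.34), but was at 0.05 with median-ratio scaling and at 2.9e-05, no change, with TMM, so its direction rests on the scaling. All 5 of 5 members were called, 4 higher and 1 lower, against 82.9% of 12666 tested genes, 23.9% higher and 59.0% lower; calls among all genes went from 28.8% to 51.1% higher with median-ratio scaling. Relative to the median the differences were 2.95 for Cybb, 1.48 for Rac2, 0.96 for Ncf1, 0.83 for Ncf4 and -0.07 for Cyba. Gene length moved with these values. When all tested genes were divided by their CPM per TPM, a stand-in for transcript length chosen after seeing the data, the median in cKO was -0.80 in the shortest group (with Cyba), -0.58 in the middle and -0.26 in the longest (with Cybb), and in WT it was -0.44, -0.58 and -0.74. Their part, and the difference between the WT and cKO responses, was not tested.

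An additive edgeR quasi-likelihood fit with TMM over the 6 libraries, with treatment and genotype as terms, used the 2 residual degrees of freedom left by genotype-specific responses as spread. In this fit 4 of 5 members passed an adjusted threshold of 0.05 for LPS, all higher, against 49.4% of 13726 genes in either direction, 24.7% higher. In the edgeR fit Cybb rose by 2.37 log2 units (SE 0.36, adjusted p = 0.0023), Rac2 by 1.80 (SE 0.23, adjusted p = 0.0012), Ncf4 by 1.08 (SE 0.20, adjusted p = 0.0055) and Ncf1 by 0.97 (SE 0.21, adjusted p = 0.0097), each higher in both genotypes. Cyba was at 0.37 in the edgeR fit (SE 0.25, adjusted p = 0.27). In the same edgeR fit Ncf1 had an adjusted p = 0.078 without WT M1 and 0.055 without cKO M1, and Cyba had 0.046 without cKO M0. The Cyba estimate itself moved between 0.05 (without WT M0) and 0.65 (without cKO M0).

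Among the 20 partners and regulators of the oxidase, 5 rose and 4 fell with LPS in the additive fit, beside 49.4% of all genes past the threshold, 24.7% in each direction. Pla2g4a, the phospholipase that frees arachidonic acid, was the highest in WT (2.62 log2 units of CPM + 1), and Prex1, a Rac exchange factor, in cKO (2.42). Prkcb, a kinase that acts on the p47phox protein, was the lowest in both (-2.62 in WT, -1.71 in cKO). Of 10 genes of NADPH supply 2 rose and 6 fell, with Idh2, a mitochondrial NADPH source, the lowest in WT (-3.71) and in cKO (-4.31). The counts of genes that rose or fell come from the additive fit with TMM, and the values of named genes are on library totals. On library totals G6pdx, the entry enzyme of the pentose phosphate pathway, was the highest supply gene in WT (0.02, not called). In cKO it was Rpe (0.50, called higher).

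Of 13 enzymes acting on superoxide and peroxide 12 were tested, and 4 rose and 4 fell, beside the same 49.4% of all genes. Sod2, the mitochondrial dismutase, had 2291 counts in WT M0 and 31611 in WT M1 (3.84), while Gpx1, a glutathione peroxidase, had 19956 and 3275 (-2.52). Of 6 transcription factors known at oxidase genes 4 rose and 1 fell, from Irf1 (3.69 in WT) to Cebpa (-3.85). Of 10 housekeeping genes 4 rose and 2 fell, from Pgk1 (0.91 in WT) to Gusb (-2.07). Other NADPH oxidases were nearly silent: of 9 genes 2 were tested and none passed, and Nox3, Noxa1, Duox1, Duox2 and Duoxa2 had 0 counts in all 6 libraries.

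Neutrophils carry the same oxidase, so their markers stand beside these values. The 14 neutrophil markers summed to 138 CPM in WT M0, 147 in cKO M0, 507 in WT M1 and 435 in cKO M1. Mmp8 was the most abundant in M0 and Csf3r in M1, where it alone had 493 CPM in WT. Ly6g had 0 counts in cKO M0, WT M1 and cKO M1, and Elane had 0 in both M0 and both M1 libraries. In the additive fit 3 of 13 tested neutrophil markers, 3 of 8 macrophage markers and 3 of 5 dendritic cell markers rose with LPS, beside 24.7% of all genes. In it 1 neutrophil, 1 macrophage and 1 of 2 B cell markers fell, and the 1 T cell marker tested (Cd4) did not pass. Itgax, the most abundant dendritic cell marker, was called lower between libraries (-0.88 in WT, -0.70 in cKO). The dendritic cell list sum went from 51.4 to 39.5 CPM in WT and from 68.5 to 57.4 in cKO. The part of these markers in the subunits' values was not tested. In bulk libraries a different share of a cell type and a different amount of RNA per cell cannot be told apart.

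IL-4 was compared with no treatment as the alternative polarization. In the library titles the sample numbers of the M2 pair are set apart from those of the M0 and M1 libraries. What these numbers stand for is not given in the labels, and their part in the IL-4 differences was not tested. Ncf4 and Ncf1, the cytosolic pair, differed most in WT. Ncf4 had 2866 counts in WT M0 and 7790 in WT M2 (1.32, limits 1.27 to 1.39), and Ncf1 had 7565 and 15172 (0.89, limits 0.85 to 0.93). Cybb went from 18539 to 29835 counts (0.57). These 3 of 5 members were called, all higher, against 60.6% of 13090 tested genes in either direction, 38.8% higher and 21.8% lower. Cyba, with 13447 and 13565 counts (-0.10), was not called, but with median-ratio scaling it was called lower at -0.27. Rac2, with 5870 and 6628 counts, was at 0.06 on library totals, -0.10 with TMM and -0.33 on TPM + 1, so its direction rests on the scaling.

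In the libraries labelled cKO, Cybb went from 8939 to 35013 counts (1.76, limits 1.73 to 1.79), Ncf1 from 6387 to 17574 (1.25) and Ncf4 from 2812 to 6653 (1.03). Cyba went from 15882 to 12645 counts (-0.54) and was called lower, and Rac2, with 6514 and 7515 counts, did not move on library totals beyond the counting limits (-0.05 to 0.04). So 4 of 5 members were called against 67.3% of 12966 tested genes, 42.4% higher and 24.9% lower. The median of all tested genes was 0.15 in WT and 0.17 in cKO, and relative to it Ncf4 was at 1.17, Ncf1 at 0.74 and Cybb at 0.43 in WT, and Cybb at 1.59, Ncf1 at 1.08, Ncf4 at 0.86 and Cyba at -0.71 in cKO. By length group the median in cKO was -0.14 in the shortest (with Cyba), 0.15 in the middle and 0.52 in the longest (with Cybb), against 0.10, 0.14 and 0.22 in WT, and its part was not tested. With median-ratio scaling, calls among all genes went from 64.1% to 49.6% higher in WT and from 62.97% to 51.0% higher in cKO.

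In the additive edgeR fit 2 of 5 members passed for IL-4, against 20.0% of 13726 genes in either direction, 10.2% higher and 9.77% lower. In the edgeR fit Ncf4 rose by 1.00 log2 units (SE 0.20, adjusted p = 0.018) and Ncf1 by 0.90 (SE 0.21, adjusted p = 0.029), both higher in both genotypes. Cybb was at 0.95 with edgeR (SE 0.35, adjusted p = 0.10) and passed with DESeq2 (adjusted p = 0.035), with no filter on low counts (0.042) and without WT M1 (0.046). These calls did not hold in every fit that left out 1 library. Without WT M2 or without cKO M2, which leaves a single M2 library, neither Ncf4 nor Ncf1 passed the threshold. Fewer of all genes passed there too, so these fits cannot tell whether the calls of Ncf4 and Ncf1 depend on 1 library. Without WT M0, which leaves a single M0 library, more of all genes passed, with Cybb (1.57) and Cyba (-0.81) added among the members. Without cKO M0 the estimates were 0.39 for Cybb, -0.20 for Cyba and -0.00 for Rac2, and without WT M0 Rac2 was at -0.31. Cyba (-0.51) and Rac2 (-0.15) did not pass with all 6 libraries (edgeR adjusted p = 0.20 and 0.67).

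The neutrophil markers moved with the IL-4 libraries. They summed to 741 CPM in WT M2 and 969 in cKO M2, all 14 had counts there, and 11 of 13 tested rose in the additive fit, beside 10.2% of all genes, while Mmp8 fell. S100a9, a calgranulin of neutrophils, had 13 counts in WT M0 and 12 in cKO M0 against 3451 in WT M2 and 4830 in cKO M2. Csf3r was the most abundant, with 330.2 CPM in WT M2, and Ly6g had 3 counts in WT M2 and 2 in cKO M2. Dendritic cell markers, Itgax the most abundant, summed to 51.4 CPM in WT M0 and 247 in WT M2, B cell markers to 5.04 and 14.9, and T cell markers to 29.1 and 5.14, with Cd3d at 0 counts in all 6 libraries. Of these lists 4 of 5 dendritic cell markers and 1 of 2 B cell markers rose, the 1 T cell marker tested fell, and 2 of 8 macrophage markers rose and 2 fell. Their part in the higher Ncf1 and Ncf4 levels of M2 was not tested.

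Among the oxidase partners and regulators 5 of 20 rose and 1 fell with IL-4, beside 10.2% of all genes higher and 9.77% lower. Prkcd, a kinase that acts on the p47phox protein, was the highest in both genotypes (3.46 in WT and 3.14 in cKO), with 6012 counts in WT M0 and 72114 in WT M2. Vav3, a Rac exchange factor, was the lowest (-1.69 in WT, -1.01 in cKO). Of the enzymes acting on superoxide and peroxide 1 of 12 rose and 4 fell, from Sod2 (1.26 in WT) to Prdx1 (-1.99), a peroxiredoxin. None of 10 NADPH supply genes rose and 2 fell, with Idh2 the lowest (-0.92 in WT). Of 6 transcription factors 1 rose, with Spi1, which encodes PU.1, the highest in WT (1.03), and of 10 housekeeping genes 2 fell, Pgk1 the lowest (-0.96).

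**Figure D2:**
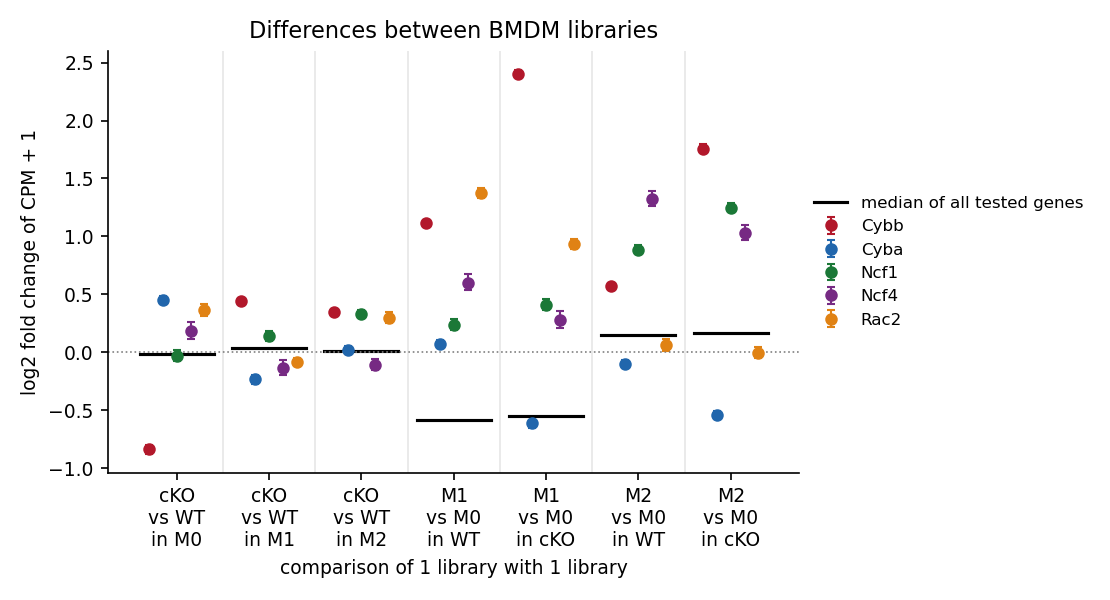
Log2 fold change of CPM + 1 for each subunit in the 7 comparisons of BMDM libraries, with 95% counting limits, and the median of all tested genes as a black line. Cybb has the largest values, 2.40 and 1.76 in cKO for LPS and IL-4, and the median of all genes is -0.58 and -0.55 for LPS.

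Genotype was compared within each treatment. In M0, Cybb had 18539 counts in WT and 8939 in the library labelled cKO, a difference of -0.84 log2 units of CPM + 1 (limits -0.88 to -0.80). Cyba had 13447 and 15882 (0.45, limits 0.42 to 0.49), and Rac2 had 5870 and 6514 (0.36, limits 0.31 to 0.42). So the core subunit was lower and its partner higher in the library labelled cKO, and 3 of 5 members were called against 48.0% of 12463 tested genes, 21.9% higher and 26.1% lower. Ncf1 was at -0.03, and Ncf4 at 0.18 on CPM + 1 but at -0.11 on TPM + 1, so its direction rests on the scale. On TPM + 1, an alternative chosen after seeing the data, the median of all genes was -0.20, and with the fold rule alone calls among all genes were 22.0% higher, against 46.3% on CPM + 1 with that rule. There Cybb was at -1.09 and Ncf1 at -0.27, past the fold threshold, while Cyba at 0.19 and Rac2 at 0.13 were not past it. Markers of other cells differed in the same pair: 2 of 2 tested B cell markers were called higher in cKO M0, Ighm with 91 and 220 counts (1.26) among them, and Itgax, the most abundant dendritic cell marker, was called higher with 1313 and 1532 (0.43). Xcr1, the other tested dendritic cell marker, had 27 and 12 counts (-0.41, not called), and of 4 tested neutrophil markers 0 were called higher and 1 lower, Csf3r with 934 and 634 (-0.33), while Mmp8, the most abundant, was at 0.22. Their part was not tested.

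The M0 difference went with gene length. With the tested genes divided by CPM per TPM as for LPS, the median difference between cKO M0 and WT M0 was 0.27 in the shortest group (4155 genes, Cyba and Ncf4 among them), 0.01 in the middle group (4154 genes, with Ncf1 and Rac2) and -0.32 in the longest group (4154 genes, with Cybb). In M1 the order was opposite, with -0.08 in the shortest, 0.02 in the middle and 0.18 in the longest group. In M2 the medians were 0.04, 0.01 and -0.03. The part of this pattern in the Cybb and Cyba values was not tested.

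In M1, Cybb had 38291 counts in WT and 49065 in the library labelled cKO (0.45, limits 0.43 to 0.46). Cyba had 13431 and 10747 (-0.23), Ncf1 8491 and 8809 (0.14), Ncf4 4142 and 3549 (-0.13) and Rac2 14498 and 12901 (-0.08). Only Cybb was called on library totals, 1 of 5 members against 26.2% of 12387 tested genes, 17.3% higher and 8.90% lower; Cyba was called lower as well with TMM, at -0.28. Calls among all genes were 66.1% higher on library totals and 56.0% higher with TMM. Of the cell markers tested, 2 of 4 for dendritic cells were called higher, Itgax at 0.61 the most, and 0 lower. For neutrophils 1 of 3 was called higher, Mmp8 (0.78), and 1 lower, S100a8 (-0.47), and for B cells Ighm (-0.51) and for T cells Cd4 (-0.28) were called lower; S100a8 and Ighm were named after their values were seen. Their part was not tested.

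In M2, Cybb had 29835 counts in WT and 35013 in the library labelled cKO (0.35, limits 0.33 to 0.37), Ncf1 15172 and 17574 (0.33, limits 0.30 to 0.36), and Rac2 6628 and 7515 (0.30, limits 0.25 to 0.35). These 3 of 5 members were called, all higher, against 24.5% of 13245 tested genes in either direction, 14.0% higher and 10.6% lower. Ncf4, with 7790 and 6653 counts (-0.11), and Cyba, with 13565 and 12645 (0.02, but -0.01 on TPM + 1), were not called. The neutrophil markers were also higher in cKO M2, 7 of 13 tested called higher and 0 lower, as were 2 of 2 tested B cell markers, Ighm (0.72) and Cd79b (0.58). Of 5 tested dendritic cell markers 2 with under 40 counts were called higher and 0 lower, while Itgax, the most abundant, had 6882 and 5475 counts (-0.21) and the list sum was 247 CPM in WT M2 and 215 in cKO M2. Their part was not tested.

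Over the 3 treatments the additive edgeR fit passed 0 of 5 members for genotype, and 0.00% of 13726 genes. At an unadjusted p under 0.05 it had 418 genes and 0 members, and DESeq2 passed 30 genes and 0 members. The estimates were -0.02 for Cybb (SE 0.28), 0.07 for Cyba (SE 0.21), 0.14 for Ncf1 (SE 0.17), -0.03 for Ncf4 (SE 0.16) and 0.19 for Rac2 (SE 0.18). Cybb was lower in M0 and higher in M1 and M2, which nearly cancel in this estimate. Leaving out 1 library at a time gave between 5 and 36 genes and 0 members, and Cybb was then between -0.24 (without cKO M1) and 0.37 (without cKO M0).

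Lists of genes around the oxidase were compared between genotypes in the same way, where 48.0% of all tested genes were called in M0, 26.2% in M1 and 24.5% in M2. Of 20 partners and regulators 3 were called higher and 7 lower in M0, close to the share of all genes, from Arhgdib, which holds Rac proteins inactive (0.58), to Prex1 (-0.84). Of 12 tested enzymes acting on superoxide and peroxide 10 were called higher in M0 and 0 lower, led by Gpx1 (0.63). Of all tested genes in M0, 21.9% were called higher and 26.1% lower. The shortest gene group had a median of 0.27 in M0 and the longest -0.32. The part of gene length in the values of these enzymes was not tested. Of 6 transcription factors 3 were called lower in M0, Cebpb the lowest (-1.04). In M1 the same lists had 4 higher and 0 lower, 2 and 3, and 1 and 2, and in M2 2 and 3, 5 and 1, and 0 and 1. Housekeeping genes were called higher for 5 of 10 in M0, 1 in M1 and 0 in M2, with Gapdh at 0.72 in M0, and genes of NADPH supply were called for 4 higher and 1 lower in M0, 0 and 1 in M1 and 1 and 4 in M2. Of 8 macrophage markers 2 were higher and 5 lower in M0, from Cd14 (1.01) to Mertk (-1.27). In M1 2 were higher and 2 lower, from Itgam (0.66) to Lyz2 (-1.25), and in M2 2 were higher and 3 lower, from Cd14 (1.01) to Lyz2 (-0.77), the gene that hosts the Cre.

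The likeness of other genes to each subunit was measured as the root mean square difference of mean-centred log2(CPM + 1) over the 6 BMDM libraries, among 9933 genes averaging 100 counts or more. The genes most like Cybb were Trim56 (0.1404) and AC159625.1 (0.149). Cyba was closest to Dpm2 (0.0401) and Med28 (0.0499), and Rac2 to Lst1 (0.0523) and Acaa1a (0.0913). Ncf1 was closest to Camta2 (0.0871) and Igbp1 (0.0943), and Ncf4 to Atg9a (0.0721) and Igbp1 (0.0895). Ncf1 and Ncf4 are close to each other too, at 0.170, which is place 29 in the order for Ncf1 and place 25 in that for Ncf4. No other pair of the 5 came nearer than 0.599, the value of Cybb and Rac2.

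The Raw264.7 tables hold normalised values from which whole reads were recovered. Their totals were 18397028 reads in the line with WT Zmynd8, 17930091 with D/E-A, 21042507 in Zmynd8 KO, 15665382 with WT p65, 16653841 with K122R and 15127110 in p65 KO. In the D/E-A table every listed gene has 21 or more reads for WT Zmynd8, so the D/E-A total covers part of that library. Zmynd8 had 485 reads with WT Zmynd8 and 497 with D/E-A. Its value in Zmynd8 KO was the single value that gave no whole reads and was not used as reads; on the normalised scale it was 116 there against 506 with WT Zmynd8 (-2.11). In the p65 lines Zmynd8 had 1826 reads with WT p65, 1070 with K122R and 1624 in p65 KO. Rela, which encodes p65, had 1601 reads with WT p65, 5850 with K122R and 765 in p65 KO, so the library labelled p65 KO was lower than WT p65 and the K122R library higher. Rela had 2846 reads with WT Zmynd8, 3334 with D/E-A and 3611 in Zmynd8 KO.

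The libraries of the Zmynd8 lines and of the p65 lines differ in ways their labels do not give. The 14 neutrophil markers summed to 11039 RPM (reads scaled to the library total) with WT Zmynd8, 5095 with D/E-A and 7642 in Zmynd8 KO, all 14 had reads, and S100a9 alone had 3497 with WT Zmynd8. The p65 tables list 6 of the 14, which summed to 8.30 RPM with WT p65, 27.8 with K122R and 5.95 in p65 KO, nearly all Csf3r, with Ltf and Cxcr2 at 0 reads with K122R and in p65 KO. Xist had 8467, 8062 and 7109 reads in the 3 Zmynd8 lines and 2, 0 and 3 in the p65 lines, although Raw264.7 came from a male mouse. Macrophage markers had reads in all 6 libraries, 8 of 8 in each, with sums between 1905 (WT p65) and 9447 (D/E-A). B cell markers summed to 365 with WT Zmynd8 and 167 with WT p65, dendritic cell markers to 160.4 and 109, and T cell markers to 19.1 and 0.192, the most abundant being Ighm for B cells. The source of the neutrophil transcripts in the 3 Zmynd8-line libraries was not tested, and the values of all 6 libraries are given by label only.

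Subunit levels in RPM differed between these sets of libraries as well. Cybb had 1449.5 with WT Zmynd8, 2290.2 with D/E-A and 1688 in Zmynd8 KO, and 1658 with WT p65, 1945 with K122R and 1148 in p65 KO. Cyba had 818, 389 and 585 in the same Zmynd8 lines and 91.5, 146 and 143 in the p65 lines. Ncf4 had 295, 185 and 252 in the Zmynd8 lines and 42.8, 57.9 and 55.4 in the p65 lines. Ncf1 ran from 602 to 722 in the Zmynd8 lines and from 359 to 452 in the p65 lines, and Rac2 from 560.1 to 616 and from 261 to 281. So Cyba, Ncf1, Ncf4 and Rac2 were lower in every p65-line library than in every Zmynd8-line library, and only Cybb overlapped. The set and the neutrophil marker level cannot be told apart here.

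**Figure D3:**
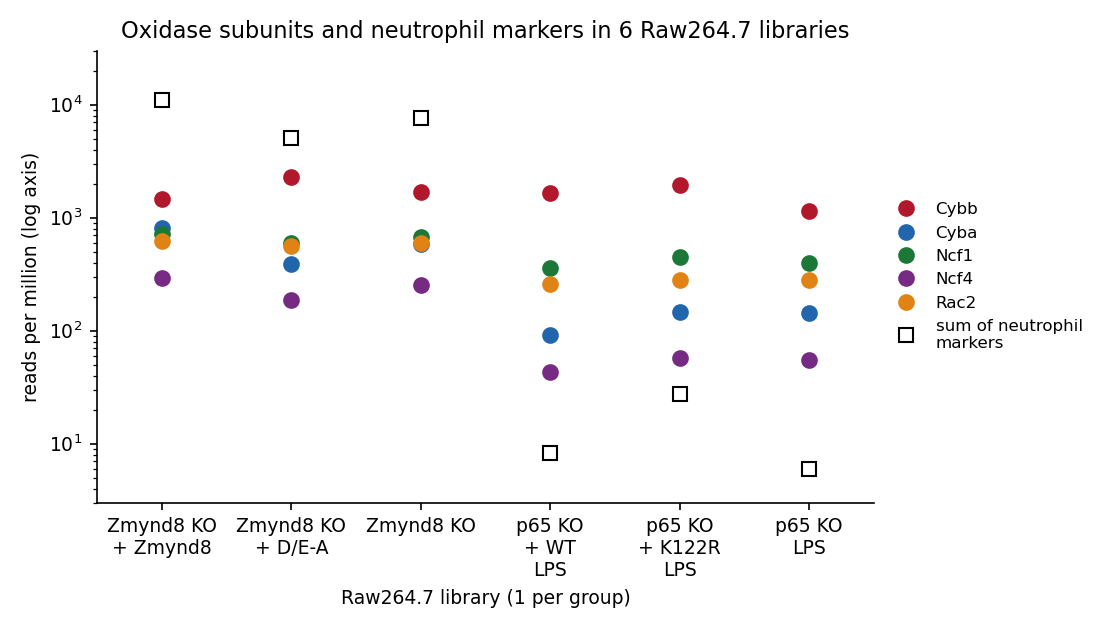
RPM on a log axis for the 5 subunits (filled points) and for the sum of the neutrophil markers (open squares) in the 6 Raw264.7 libraries, 1 point each. The marker sum is between 5095 and 11039 in the Zmynd8 lines and between 5.95 and 27.8 in the p65 lines, where all subunits but Cybb are also lower.

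D/E-A was compared with WT Zmynd8 to see what the mutant protein does in place of the normal one. Within their table the normalised value of Cybb was 26054 with WT Zmynd8 and 42030.3 with D/E-A, a difference of 0.69 log2 units of the value + 1 (limits 0.67 to 0.71). Cyba was at 14708 and 7139 (-1.04, limits -1.08 to -1.002), and Ncf4 at 5296 and 3402 (-0.64, limits -0.70 to -0.58). The core was thus higher and its partner lower with the mutant. Here a gene was called at a 1.2-fold difference alone, and 3 of 5 members were called against 72.6% of 12771 tested genes, 36.7% higher and 35.9% lower. Ncf1, at 12979 and 11051 (-0.23), was called lower only with scaling by library totals (-0.27), and Rac2 was at 11070 and 10279 (-0.11).

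The lists of the same comparison stand beside the 72.6% of all genes that pass this rule. Of 14 neutrophil markers 13 were lower with D/E-A and Csf3r was higher, Ly6g being the lowest (-2.12), while 7 of 8 macrophage markers were higher, led by Adgre1 (1.43). Of 5 dendritic cell markers listed 1 was higher and 4 lower, of 6 B cell markers 3 were higher and 1 lower, and none of 4 T cell markers passed the fold. Among the lower dendritic cell markers, Flt3 has counting limits that span 0 (-0.998 to 0.179). The part of these markers in the Cybb, Cyba and Ncf4 values was not tested. Of 20 oxidase partners 9 were higher and 1 lower, from Pla2g4a (1.52) to Arhgdib (-0.50), and of 12 listed superoxide and peroxide enzymes 3 were higher and 9 lower, from Cat, catalase (1.198), to Gpx4, a lipid peroxidase (-1.02). Of 6 transcription factors 3 were higher, Elf1 the most (1.43), and 1 lower, Cebpa (-0.96). Genes of NADPH supply split into 3 higher and 5 lower, from Rpe (0.74) to Pgls (-1.17), and housekeeping genes into 4 higher and 1 lower, from Gusb (0.64) to Rplp0 (-0.50). Nox1 (-0.77) was the only other NADPH oxidase gene listed.

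Zmynd8 KO shares the WT Zmynd8 library as its reference. Cybb was at 27808 with WT Zmynd8 and 34059.8 in Zmynd8 KO (0.29, limits 0.27 to 0.32), and Cyba at 15698 and 11798 (-0.41, limits -0.45 to -0.38). Only these 2 of 5 members were called, against 70.3% of 21302 tested genes (33.8% higher, 36.5% lower), and Cybb was not called with library totals scaling (0.22). Ncf1 was at 13852 and 13649 (-0.02), Ncf4 at 5653 and 5081 (-0.15) and Rac2 at 11815 and 12094 (0.03, but -0.04 on library totals). Of 14 neutrophil markers 7 were lower and 0 higher, and of 8 macrophage markers 7 were higher, and their part in the subunits' values was not tested. Of 6 B cell markers 1 was higher and 4 lower.

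K122R was compared with WT p65, both labelled LPS, to see whether subunit levels after LPS differ with the acetylation-site mutant. No p65 library is labelled untreated, so the response to LPS itself cannot be measured here. Rela differed in this pair too, at 1571 with WT p65 and 5963 with K122R (1.92). Cyba was at 1406 with WT p65 and 2477 with K122R (0.82, limits 0.72 to 0.91), Ncf4 at 657 and 984 (0.58, limits 0.44 to 0.73), Ncf1 at 5514 and 7679.8 (0.48, limits 0.43 to 0.53) and Cybb at 25473 and 33011 (0.37, limits 0.35 to 0.40). These 4 of 5 members were called, all higher, against 63.3% of 19670 tested genes in either direction, 30.8% higher and 32.5% lower. Rac2, at 4011 and 4767 (0.25), was not called. With library totals the median of all genes was -0.14, calls among all genes went from 48.6% to 37.0% higher, 3 members were called and Cybb, at 0.23, was not.

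In p65 KO, which shares the WT p65 library, Cybb was at 25527 with WT p65 and 17662 in p65 KO (-0.53, limits -0.56 to -0.50). Cyba was at 1409 and 2205 (0.65, limits 0.55 to 0.74), and Ncf4 at 659 and 852 (0.37, limits 0.22 to 0.52). So the core was lower and its membrane partner higher in the library labelled p65 KO, which still held 765 Rela reads, and 3 of 5 members were called against 51.9% of 19879 tested genes, 26.3% higher and 25.7% lower. Ncf1, at 5526 and 6108 (0.14), and Rac2, at 4019.8 and 4314 (0.10), were not called.

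Lists of genes around the oxidase stand beside 63.3% of all tested genes called with K122R and 51.9% in p65 KO. With K122R 4 of 20 partners and regulators were higher and 6 lower, from Pik3cg, a lipid kinase (0.61), to Vav2 (-0.66), and in p65 KO 5 were higher and 1 lower, from Pla2g4a (0.50) to Prex1 (-0.54). Of the 5 higher ones, Prkcb and Hvcn1 (named after their values were seen) have counting limits that span 0. Of 12 tested superoxide and peroxide enzymes 5 were higher and 2 lower with K122R, led by Prdx5 (1.08), and in p65 KO 1 was higher and 1 lower, Sod2 being the lowest (-0.70). Cebpa was the highest of the 6 transcription factors in both, at 1.38 with K122R and 0.99 in p65 KO. Cell markers moved too. With K122R 1 of 4 tested dendritic cell markers was higher, Xcr1 (1.18), and 2 were lower, Ccr7 the lowest (-2.26), while 3 of 8 macrophage markers were higher, Cd14 the most (0.85), and 2 lower. In p65 KO 2 of 4 dendritic cell markers were higher and 1 lower, from Xcr1 (0.65) to Ccr7 (-0.39), and 2 of 8 macrophage markers were higher, Cd14 the most (0.52), and 1 lower. No neutrophil marker exceeded 10 RPM in WT p65 or p65 KO, and Csf3r alone did with K122R (1.94), while in p65 KO it was lower (-0.54). Of 5 tested B cell markers 3 were higher and 1 lower with K122R, Cd79b the highest (2.11) and Ighm, the most abundant, at 0.31, and in p65 KO 2 were higher and 2 lower, Pax5 at -0.58 among them. With few reads, Cd79a and Ms4a1 in both comparisons and Cd79b in p65 KO have counting limits that span 0 or are open. So has Mertk, a macrophage marker counted as lower with K122R (limits -3.13 to 2.20) and in p65 KO (-4.42 to 1.85). The part of these markers in the subunits' values was not tested.

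**Figure D4:**
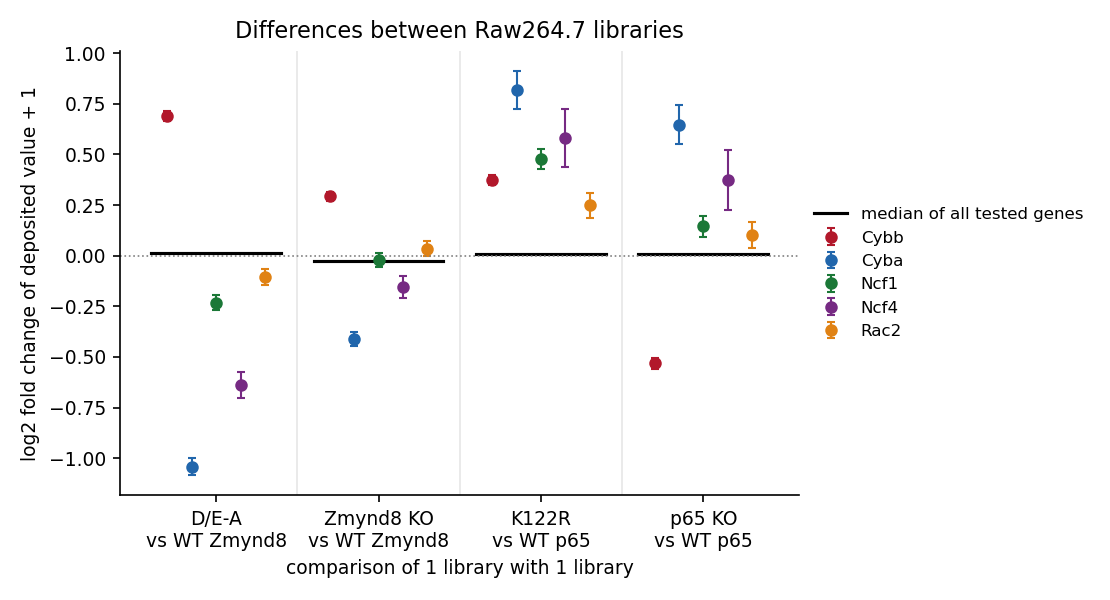
Log2 fold change of the normalised value + 1 for each subunit in the 4 Raw264.7 comparisons, with 95% counting limits, and the median of all tested genes as a black line. Cybb and Cyba lie on opposite sides of 0 with D/E-A (0.69 and -1.04), Zmynd8 KO (0.29 and -0.41) and p65 KO (-0.53 and 0.65), and on the same side with K122R (0.37 and 0.82).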

How the data were processed

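RNA of 12 libraries was analysed. For BMDMs the authors deposited estimated counts per gene, not scaled for depth, and TPM, which they scaled for length and depth; the study's methods name TopHat and the mm10 transcriptome, and the labels list CASAVA 1.4, Bowtie 0.12.2 and builds mm8 and mm10. For Raw264.7 the deposited values are a signal that the authors scaled by a size factor per library in each table; no separate steps are given for these libraries. Within a tolerance of 0.01 reads the values were whole reads once multiplied back, except 1, and 2 libraries stand in 2 tables each with the same reads. Between 75.2% and 76.6% of BMDM counts above 0 were whole numbers exactly as deposited, and the counts were rounded. The authors' columns of fold changes and p values compare the same pairs and were not used. Also not used were 2 unlabelled columns of per-sample values, and 431 non-gene entries of the M0 table and 2 of the M2 table.

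BMDM pairs were compared as log2 of CPM + 1 on library totals, for genes with a mean of 10 counts or more; Raw264.7 pairs as log2 of the value + 1, for a mean value of 1 or more. Comparisons with the same reference library are not independent. The additive fit used edgeR 4.0.16 (quasi-likelihood, TMM, Benjamini-Hochberg) in R 4.3.3, with DESeq2 1.42.0 as an alternative; the code was tested on simulated data. An exact binomial test on the recovered Raw264.7 reads called 4212 genes higher and 3688 lower with D/E-A, 3931 and 3103 in Zmynd8 KO, 2617 and 2736 with K122R, and 1336 and 1370 in p65 KO. The members and lists were chosen with earlier results of these data known. The text names the highest and lowest gene of each list among genes averaging 100 counts (Raw264.7: a value of 10) or more, and says where a gene was chosen otherwise.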

Additional observations from a re-analysis of the deposited data

Results flagged for a closer look

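Cybb stood out because its difference between the library labelled cKO and WT has opposite signs in different treatments: -0.84 log2 units of CPM + 1 in M0, 0.45 in M1 and 0.35 in M2. The difference between these values was not tested, since each group holds 1 library. Technical explanations that could account for it include the composition of the cKO M0 library, where the longest genes had a median of -0.32 and the shortest 0.27. In M1 these medians were 0.18 and -0.08. In M2, where Cybb was at 0.35, they were -0.03 and 0.04, and the part of gene length was not tested. Xist, at 19386 counts in WT M0 and 7310 in cKO M0, 6133 in WT M1 and 10046 in cKO M1, and 31447 in WT M2 and 27605 in cKO M2, also differed between libraries, although the study describes control littermates matched for sex, and what sets the Xist counts was not tested. A treatment-dependent effect of the genotype would give the same values, and these explanations cannot be told apart here.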

How the results depend on the processing

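Calls of members were repeated under other pseudocounts, filters, scalings and tests. At a fold of at least 2 the members called were 0 for cKO against WT in M0, M1 and M2, for Zmynd8 KO, K122R and p65 KO, and 1 for M1 against M0 in cKO, M2 against M0 in WT and D/E-A. For genotype this fold called 121 of 12463 genes higher and 356 lower in M0. In M1 it called 71 and 41 of 12387, and in M2 207 and 54 of 13245. It called 1765 and 3695 of 21302 in Zmynd8 KO, 2066 and 1860 of 19670 with K122R, and 1840 and 1309 of 19879 in p65 KO. In cKO, M1 against M0 had 1668 and 4157 of 12666. In WT, M2 against M0 had 1314 and 810 of 13090, and D/E-A had 886 and 1459 of 12771. With an edgeR exact test at an assumed coefficient of variation of 0.2 the members called were 0 for cKO against WT in each treatment. They were 2 for M1 and for M2 against M0 in cKO, and 1 for M2 against M0 in WT. For genotype that test called 81 of 12463 genes higher and 192 lower in M0. It called 22 and 15 of 12387 in M1, and 125 and 35 of 13245 in M2. Against M0 it called 1992 and 4924 of 12666 for M1 in cKO and 2168 and 871 of 12966 for M2 in cKO. For M2 against M0 in WT it called 1487 and 867 of 13090. Median-ratio and TMM scaling gave 2 members called for cKO against WT in M1 and 5 for M1 against M0 in WT. Library totals gave 1 member called for Zmynd8 KO. For genotype in M1, median ratio called 1829 of 12387 genes higher and 1406 lower, and TMM 1809 and 1419. For M1 against M0 in WT they called 4864 and 4714, and 4754 and 4840, of 12813. Library totals called 6327 and 8407 of 21302 genes for Zmynd8 KO. Cyba in M1 against M0 in cKO, called lower at -0.61, was at 0.0465 with median ratio and at 2.9e-05, no change, with TMM, and stayed lower at -0.34 on TPM + 1. On CPM the highest level over the lowest was 5.29 for Cybb, 1.53 for Cyba, 2.38 for Ncf1 and 2.60 for Rac2. In the additive fit for IL-4, the members past the threshold were 0 without WT M2 and 4 without WT M0. These fits leave a single M2 or a single M0 library. Of all genes, fewer passed without WT M2 and more without WT M0 than with all 6 libraries. On TPM + 1, chosen after seeing the data, 2 members were called for cKO against WT in M0. With that scale and the fold rule alone, 1552 of 12463 genes were called higher and 5490 lower. The cause was not tested for any of these. Of the values that lead the text, 96 stayed the same and 27 moved; of the others 118 stayed, 80 moved and 2 (the Cyba values above) were no longer below 0. Each group holds 1 library, and the additive fit compares genotypes within treatments.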
